A study of Rattus norvegicus with 18 samples.

Results

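Palbociclib was compared with its own vehicle in the lining of the rat jejunum, which lies between duodenum and ileum. The comparison pools 6 arrays, 3 from rats given 30 mg/kg/day and 3 from rats given 100 mg/kg/day, against 3 arrays from rats given 0.5% methyl cellulose alone, and so uses 9 of the 18 arrays of the series. Arrays were taken by their treatment label, and no measured value entered that choice. All 14217 genes with a named probe set were examined, each by its brightest probe set.

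RNA came from scrapings of the mucosa of male Sprague Dawley rats that were 6 to 8 weeks old, dosed by oral gavage once a day. The study's design text gives 10 rats per group and dosing for 4 or 15 days, and the labels do not say how long the rats of a given array were dosed or whether an array holds RNA of 1 rat. The limma p-values below therefore rest on the spread between arrays, which may not be that between single rats. Unless said otherwise, that spread was estimated over all 18 arrays in 6 groups, and not over the 9 compared alone. The remaining arrays are from rats given ribociclib at 300 mg/kg/day or abemaciclib at 36 or 120 mg/kg/day, both in a hydroxypropyl methylcellulose, tween 80 and citrate mixture that no vehicle array represents.

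Palbociclib inhibits CDK4 and CDK6, kinases that are switched on by D-type cyclins and then phosphorylate Rb1, the retinoblastoma protein. Phosphorylated Rb1 releases E2F transcription factors, which switch on the genes for DNA synthesis. In the small intestine division is limited to the crypts, where stem cells and their fast-dividing daughters renew the villus epithelium, and the scrapings also carry lymphocytes, macrophages and stroma of the mucosa.

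Array medians over all probe sets lay between 5.41 and 5.51 on the log2 scale. Over the 14217 genes the medians were 6.61 to 6.77 in vehicle and 6.44 to 6.70 in palbociclib. Centring of arrays, used below, was on these gene medians. The 9 arrays correlated with each other at 0.973 to 0.993. The markers of the labelled tissue were strong. Fabp1, the fatty acid binding protein of enterocytes, had a log2 signal of 14.18 ± 0.05 (SD, n = 3) in vehicle and 14.16 ± 0.05 (SD, n = 6) in palbociclib, and Muc2, the goblet cell mucin, had 13.84 ± 0.06 and 13.73 ± 0.20. The excess of the 3′ over the 5′ actin control probe sets on the log2 scale, a measure of RNA degradation, was 0.670 ± 0.113 in vehicle and 0.601 ± 0.127 in palbociclib (exact permutation test over 84 arrangements, two-sided p = 0.476, the smallest possible being 0.0238).

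No gene passed an adjusted p of 0.05 in limma when palbociclib was compared with vehicle. The lowest adjusted p was 0.906, and the background of called genes was 0% higher and 0% lower. An unadjusted p under 0.05 was reached by 707 genes, 266 higher (1.87% of all genes) and 441 lower (3.1%). The 6 palbociclib arrays all lay above the 3 vehicle arrays for 201 genes (1.41%) and all below them for 319 (2.24%). The median standard error of a pooled log2 difference was 0.18, and for 89.2% of the genes (12677) the 95% interval lay within a 2-fold change in either direction. Only 57 genes had a mean difference above 2-fold, 14 higher and 43 lower. Each dose on its own also called 0 genes, with 1023 unadjusted at 100 mg/kg/day (lowest adjusted p = 0.109) and 357 at 30 mg/kg/day (lowest adjusted p = 0.998). With only the compared groups in the limma fit, the pooled comparison still called 0 genes, with 1287 unadjusted (lowest adjusted p = 0.490). The single doses also called 0 in such a fit, with 1904 unadjusted at 100 mg/kg/day (lowest adjusted p = 0.141) and 874 at 30 mg/kg/day (0.768). The count depended on how arrays were weighted. With limma array weights, which gave palbociclib 30 replicate C a weight of 0.47 and palbociclib 30 replicate B one of 5.41, 858 genes were called, 191 higher (1.34% of all genes) and 667 lower (4.69%). The 24 genes ranked below were chosen by these same p-values, and 23 of them were called with weights. Without vehicle replicate A 2 genes, Blk and Ly86, picked out for this reason alone, were called (adjusted p = 0.0371). Of the 235 genes described by the fixed rule 17 changed sign with centred arrays and 5 after quantile normalization.

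The genes of G1/S transition and DNA replication, the direct readout of Rb1 and E2F, had a median log2 difference of -0.17 over 34 measured genes, against -0.01 over all genes. The difference was negative for 30 of them, and none passed the adjusted test. Arrays did not overlap for 4 genes that were lower, Mcm2, Mcm4, Mcm6 and Uhrf1, and for 1 that was higher, Mcm10, a replication factor picked out after its values were seen, with a difference of 0.52. Over all genes, arrays did not overlap for 2.24% that were lower and 1.41% that were higher. Under centring of each array on its median over the 14217 genes, the list's median was -0.04. That centring moved the median difference of all genes from -0.01 to 0.12.

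Mcm6 and Mcm2 encode subunits of the MCM helicase that opens DNA at replication origins. Only the genes of the list that were lower without overlap were looked up for display, and Mcm10, which was higher, was not. The sequences of Mcm6 and Mcm2 before the transcription start are shown because they hold overlapping E2F-type words. Whether such a word goes with a lower signal was not tested. Mcm4 and Uhrf1 were also looked up and gave no match, Mcm4 having no promoter to search. The words searched were TTTCCCGC, TTTGGCGC, TTTCGCGC and TTTGCCGC, on both strands of the 250 bases before the start, and the capitals mark every match. The sequences are from RefSeq, build GRCr8, and are written 5′ to 3′ on the strand of the gene.
Mcm6, chr13:42404440-42404531, minus strand: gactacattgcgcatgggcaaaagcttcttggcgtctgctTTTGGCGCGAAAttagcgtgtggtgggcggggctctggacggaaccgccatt
Mcm2, chr4:122918095-122918124, minus strand: ggtcacgtgacccggtTTTCGCGCGAAAac
In Mcm6 the word TTTGGCGC, 139 to 132 bases before the start, shares bases with TTTCGCGC on the other strand, 135 to 128 bases before it. In Mcm2 the word TTTCGCGC lies 14 to 7 bases before the start used here and shares bases with its own match on the other strand. That start lies inside the gene model, so only 30 bases are shown. At least 1 such word was found for 9 of the 29 genes of the list with a promoter in the table (31.0%), 345 of 11733 measured genes (2.94%) and 580 of all 33469 promoters (1.73%). A match is a description of these letters only.

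Mcm6 had log2 signals of 6.52, 6.75 and 6.12 in vehicle, 4.84, 5.26 and 5.92 at 30 mg/kg/day, and 5.06, 5.92 and 5.18 at 100 mg/kg/day. All palbociclib arrays were below all vehicle arrays, with a pooled log2 difference of -1.10 ± 0.31 (SE, 95% interval -1.75 to -0.45, limma unadjusted p = 0.0025, adjusted p = 0.906). Mcm2 had 6.00, 6.53 and 5.94 in vehicle, 5.10, 5.43 and 5.36 at the low dose and 5.20, 5.80 and 5.51 at the high dose, a difference of -0.76 ± 0.21. Mcm4, another subunit of the helicase, gave 5.58, 6.00 and 5.16 in vehicle and stayed between 4.33 and 4.90 over the palbociclib arrays. Uhrf1, which maintains DNA methylation behind the replication fork, gave 4.38 to 4.72 in vehicle and 4.01 to 4.20 with palbociclib. Neither dose stood apart from the other for these genes: the difference of 100 from 30 mg/kg/day was 0.04 ± 0.36 for Mcm6 and 0.21 ± 0.25 for Mcm2. With array weights, where 4.69% of all genes were lower, 6 of the 34 genes fell, Mcm6 by 1.14 (adjusted p = 0.0218) and Mcm2 by 0.77 (adjusted p = 0.0263) among them.

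Over the 11 measured genes of CDK4 and CDK6, their D cyclins, the Rb family and the CDK-activating kinase, 9 differences were negative, with a median of -0.18 (-0.05 with centred arrays). Ccnh, the cyclin of the CDK-activating kinase, had the lowest difference and was the 1 member with an unadjusted p under 0.05. It gave 8.55, 8.83 and 8.31 in vehicle, 7.35, 7.78 and 8.43 at 30 mg/kg/day and 7.74, 7.73 and 7.91 at 100 mg/kg/day, a difference of -0.74 ± 0.33 (-0.78 with array weights, adjusted p = 0.0451). Only replicate C at the low dose reached the vehicle range. Cdk4 was at 7.62 ± 0.32 in vehicle and 7.25 ± 0.29 in palbociclib, a log2 difference of -0.37 ± 0.40 (SE). Cdk6, near the low end of the scale, was at 4.31 ± 0.09 and 4.22 ± 0.17. Ccnd1, the cyclin induced by growth signals, had 6.65, 7.73 and 6.76 in vehicle, 6.18, 7.45 and 7.22 at 30 mg/kg/day and 7.09, 7.96 and 7.95 at 100 mg/kg/day, so its groups overlapped. Rb1, the main substrate, was at 9.35 in both groups, with an interval of -0.33 to 0.34 for the difference. Rbl1, an Rb relative, had a difference of -0.31 ± 0.16.

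Of the 8 measured CDK inhibitors 7 had negative differences, with a median of -0.15 (-0.03 with centred arrays). Cdkn2d, an INK4 protein that binds CDK4 and CDK6, was between 8.23 and 8.38 in vehicle. With palbociclib 5 arrays lay between 7.14 and 7.61 and replicate C at 30 mg/kg/day at 8.45, above every vehicle array. The pooled difference was -0.68 ± 0.23. Cdkn1b, which encodes p27, had a difference of -0.13 at the low dose and -0.68 at the high dose. Cdkn1a, which encodes p21, was at 10.27 ± 0.17 and 10.23 ± 0.31.

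**Figure D1:**
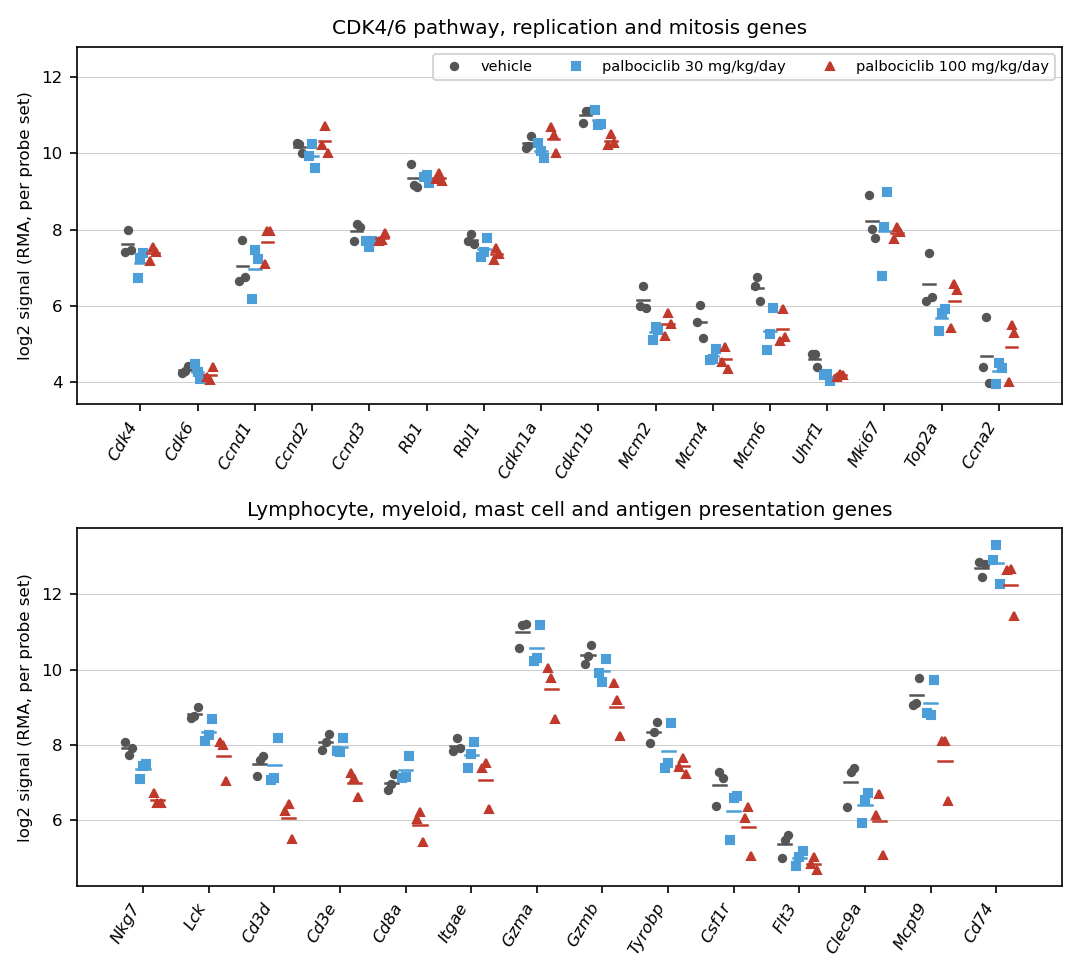
Log2 signal of each array for genes of the CDK4/6 pathway and cell division (upper panel) and of immune cells (lower panel), with vehicle in grey, palbociclib 30 mg/kg/day in blue and 100 mg/kg/day in red. Horizontal bars are the means of 3 arrays. Mcm2, Mcm4, Mcm6 and Uhrf1 lie below vehicle in all 6 palbociclib arrays, and Nkg7 and Lck do too, with the lowest values at 100 mg/kg/day.

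Genes of G2/M and mitosis had a median difference of -0.10 over 38 genes, which became 0.02 with centred arrays and 0.04 without vehicle replicate B, and 25 of the 38 were negative. No member had arrays that did not overlap. For 32 of the 38 the 95% interval excluded a 2-fold rise, for 26 a 2-fold fall and for 21 both. Over all 14217 genes the counts were 13709, 13060 and 12677 (89.2%). Mki67, the standard marker of dividing cells, ranged from 7.78 to 8.90 in vehicle, and palbociclib had both the lowest (6.78) and the highest of the 9 arrays. Top2a, which untangles chromosomes, was at 6.57 ± 0.70 and 5.90 ± 0.51, a difference of -0.66 with an interval of -1.82 to 0.50. Ccna2, the S and G2 cyclin, was at 4.68 ± 0.91 and 4.59 ± 0.65. The 2 doses had list medians of -0.30 (30 mg/kg/day) and 0.06 (100 mg/kg/day) against the shared vehicle.

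The crypt stem cell list had a median of -0.09 over 15 genes (0.04 with centred arrays) and the Wnt target list -0.06 over 11 (0.06 with centred arrays), with no member at an unadjusted p under 0.05 in either. At 30 and 100 mg/kg/day the stem cell medians were -0.19 and 0.17, and the Wnt medians -0.10 and 0.03. Leaving out 1 array at a time gave the stem cell list -0.31 to -0.10 at the low dose and 0.0005 to 0.22 at the high dose. Lgr5, the Wnt receptor that marks crypt stem cells, stayed between 3.74 and 4.24 in the 9 arrays, near the bottom of the scale. Axin2, a feedback target of Wnt, had 6.60, 6.24 and 6.34 in vehicle, 5.37, 5.94 and 6.07 at 30 mg/kg/day and 6.98, 6.86 and 6.37 at 100 mg/kg/day. The low-dose arrays were all below vehicle and the high-dose arrays overlapped it. The dose difference of 0.94 ± 0.35 did not pass (limma adjusted p = 0.997).

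Ribosome biogenesis genes, which scale with growth, had a median of -0.18 over 29 genes, 26 of them negative, and -0.06 with centred arrays. The median was -0.02 without vehicle replicate B, -0.28 without vehicle replicate A and -0.29 without vehicle replicate C. Polr1a, the largest subunit of RNA polymerase I, was at 5.66 ± 0.37 in vehicle and 5.03 ± 0.28 in palbociclib and was the 1 member with an unadjusted p under 0.05.

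Across all genes, the 12 lowest p-values in each direction among genes with arrays that did not overlap were taken as a ranked description, since none of the 24 passed. Among those lower with palbociclib, Ccdc80, a secreted matrix protein, had the smallest p. It gave 6.26, 6.25 and 6.56 in vehicle, 5.60, 5.83 and 6.13 at the low dose and 5.58, 5.07 and 4.82 at the high dose, a pooled difference of -0.85 ± 0.17. Cib2, a calcium and integrin binding protein, was at 7.31 ± 0.16 in vehicle, with 6.16, 6.09 and 6.88 at the low dose and 5.54, 4.42 and 5.74 at the high dose. Its difference of -1.51 ± 0.35, about 2.85-fold, was the widest of the 12. Ldaf1, a lipid droplet assembly factor, differed by -1.08 ± 0.25 and Kif21a, a kinesin motor, by -0.87 ± 0.22. Both had lower values at 100 than at 30 mg/kg/day in every array. Jakmip1, a microtubule-associated protein, was at 8.04, 8.04 and 8.03 in vehicle and between 6.97 and 7.55 with palbociclib. Hat1, which acetylates newly made histone H4, was between 8.95 and 9.12 in vehicle and between 8.07 and 8.71 with palbociclib, a difference of -0.58 ± 0.15. Fgr, a Src-family kinase of myeloid cells, and Crabp2, a retinoic acid carrier, differed by -0.81 ± 0.21 and -0.88 ± 0.24. The other members of the 12 were Nkg7, Ccdc32, Fgd4 and Mcm6.

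Among the 12 higher genes only Cemip, which takes part in hyaluronan breakdown, had a signal well above the array medians. It gave 9.73, 9.27 and 8.94 in vehicle, 9.90, 10.10 and 10.22 at 30 mg/kg/day and 10.48, 10.44 and 9.87 at 100 mg/kg/day, a difference of 0.85 ± 0.27. The remaining 11 lay between 3.43 and 5.30 in every array, below the array medians, and none was shown to be above background. Bcl2, the inhibitor of apoptosis, was between 4.20 and 4.27 in vehicle and between 4.34 and 4.67 with palbociclib, a difference of 0.30 ± 0.09. Stac3, a muscle adaptor protein, had 0.46 ± 0.14. The other differences among these 11 were from 0.19 (Tekt3) to 0.34 (Sema3e).

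**Figure D2:**
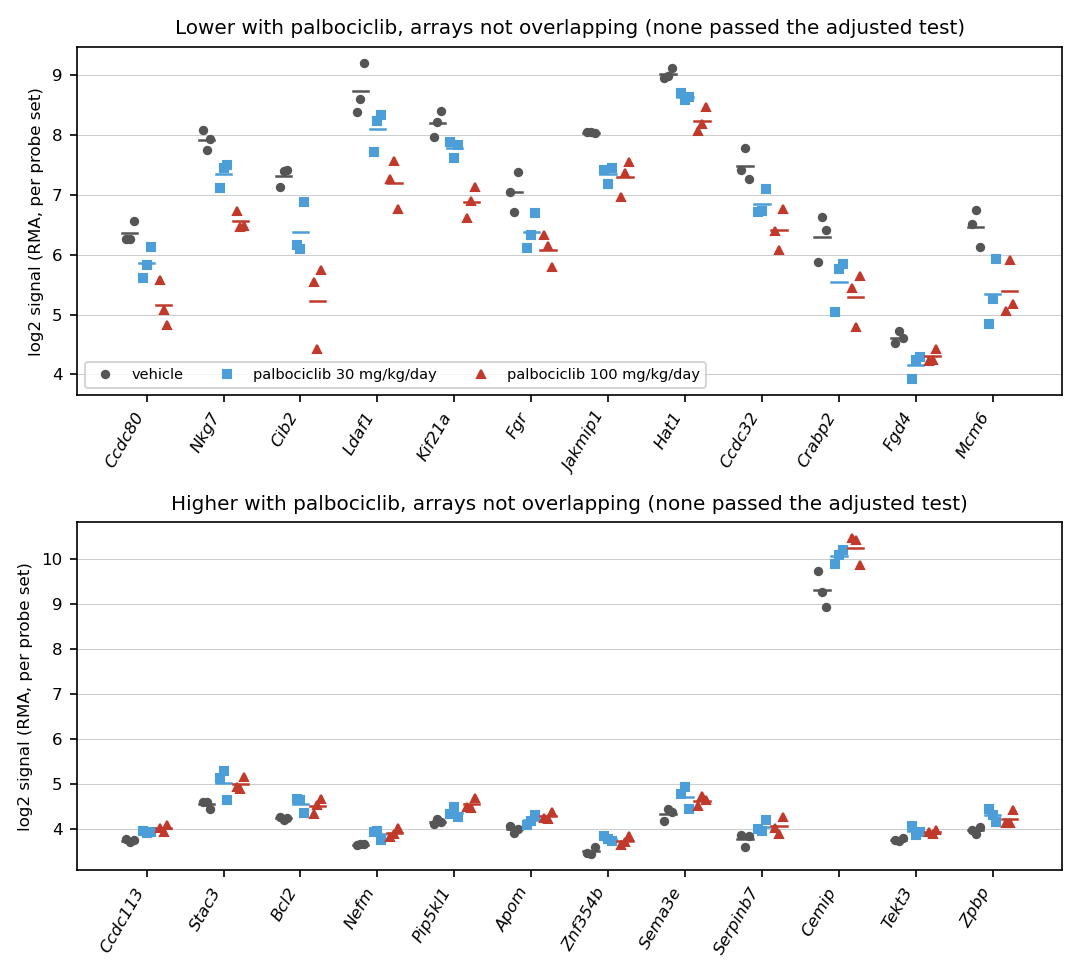
Log2 signal of each array for the 12 lower (upper panel) and 12 higher (lower panel) genes ranked by p among those with arrays that did not overlap. Grey marks vehicle, blue 30 and red 100 mg/kg/day, and bars are means of 3 arrays. None of the 24 passed the adjusted test, and all of the higher genes except Cemip lie below a log2 signal of 5.5.

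Markers of T and NK cells had a median of -0.46 over 22 genes, 20 of them negative (-0.33 with centred arrays). In a scraping, fewer cells of a type and less RNA per cell cannot be told apart. The list's median was -0.13 at 30 and -0.93 at 100 mg/kg/day. In the single arrays at 100 mg/kg/day it was -0.63, -0.46 and -1.46, the last being replicate C, and leaving out 1 array at a time gave -1.13 to -0.60, the value nearest 0 being without replicate C. At 30 mg/kg/day the arrays gave -0.16, -0.29 and 0.10. Unadjusted p was under 0.05 for 5 of 22 genes in the pooled comparison, all lower, and at 100 mg/kg/day for 10 of 22, all lower, where 4.68% of all genes were lower and 2.52% higher at that p. None passed the adjusted test at either dose, and with array weights 4 of the 22 fell in the pooled comparison, where 4.69% of all genes were lower.

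Nkg7, a granule protein of cytotoxic lymphocytes, gave 8.08, 7.75 and 7.93 in vehicle, 7.10, 7.45 and 7.50 at the low dose and 6.73, 6.46 and 6.47 at the high dose. The 3 groups did not overlap, and the pooled difference was -0.97 ± 0.20 (adjusted p = 0.906). Lck, the kinase behind the T-cell receptor, had 8.73, 8.77 and 9.01 in vehicle, 8.12, 8.26 and 8.70 at the low dose and 8.08, 7.99 and 7.05 at the high dose. Cd3d, a chain of the T-cell receptor complex, had 7.18, 7.60 and 7.72 in vehicle, 7.08, 7.13 and 8.18 at the low dose and 6.24, 6.45 and 5.52 at the high dose, so that only the high dose lay apart from vehicle. Its difference was -0.04 at 30 and -1.43 ± 0.36 at 100 mg/kg/day. The granzymes Gzma and Gzmb, proteases of killer cells, had pooled differences of -0.95 ± 0.60 and -0.91 ± 0.63. Itgae, the integrin that holds lymphocytes in the epithelium, had -0.57 ± 0.25.

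Markers of macrophages and dendritic cells had a median of -0.53 over 20 genes, 17 negative (-0.41 with centred arrays), with -0.44 at the low dose and -0.62 at the high dose. No member had arrays that did not overlap, and Csf1r, Tyrobp and Flt3 were the 3 with an unadjusted p under 0.05. Csf1r, the receptor for macrophage growth factor, had 6.39, 7.29 and 7.13 in vehicle, 5.47, 6.59 and 6.66 at the low dose and 6.06, 6.36 and 5.05 at the high dose, a difference of -0.90 ± 0.38. Tyrobp, an adaptor of myeloid receptors, differed by -0.70 ± 0.32, with 30 mg/kg/day replicate C at 8.57 inside the vehicle range. Flt3, the dendritic cell growth receptor, differed by -0.44 ± 0.16.

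The fibroblast and collagen list had a median of -0.35 over 22 genes, 17 negative and none at an unadjusted p under 0.05 (-0.22 with centred arrays), and the vehicle arrays themselves spread from -0.34 to 0.31. The 30 mg/kg/day arrays were at -0.75, -0.42 and -0.39, all below vehicle, and the 100 mg/kg/day arrays at -0.17, -0.13 and -0.46, with dose medians of -0.51 and -0.17. Vim, an intermediate filament of stromal cells, was between 8.46 and 9.10 in vehicle and between 7.21 and 8.46 with palbociclib. Mast cell genes had a median of -0.03 over 17 (0.09 with centred arrays). Mcpt9, a mast cell protease, had 9.05, 9.12 and 9.78 in vehicle, 8.86, 8.81 and 9.72 at the low dose and 8.10, 8.12 and 6.52 at the high dose. Over 12 genes of B and plasma cells the median was 0.01 (-0.03 after quantile normalization). Endothelial genes had -0.13 over 13 (-0.006 with centred arrays), smooth muscle -0.01 over 16 (0.11) and pancreatic enzymes 0.09 over 18 (0.22).

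In the MHC class I list 12 of 13 genes had negative differences, with a median of -0.07 (0.06 with centred arrays), 0.03 at the low dose and -0.14 at the high dose. The MHC class II list had a median of -0.11 over 9 genes and 0.02 with centred arrays. Its arrays ran from -0.26 to 0.67 at 30 and from -0.69 to -0.17 at 100 mg/kg/day. Cd74, the class II invariant chain, was at 12.71 ± 0.22 in vehicle and 12.54 ± 0.64 in palbociclib. Interferon-stimulated genes had a median of -0.11 over 37 and 0.01 with centred arrays, with 26 of 37 negative. Single arrays were at 0.12, 0.82 and -0.47 at the low dose and at -0.30, -0.25 and -0.56 at the high dose. At 100 mg/kg/day the median was -0.36 (-0.48 to -0.22 on leaving out 1 array), with 29 of 37 genes negative, 3 of them at an unadjusted p under 0.05. At that dose 7 of 9 class II and 12 of 13 class I genes were negative, none at that p.

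**Figure D3:**
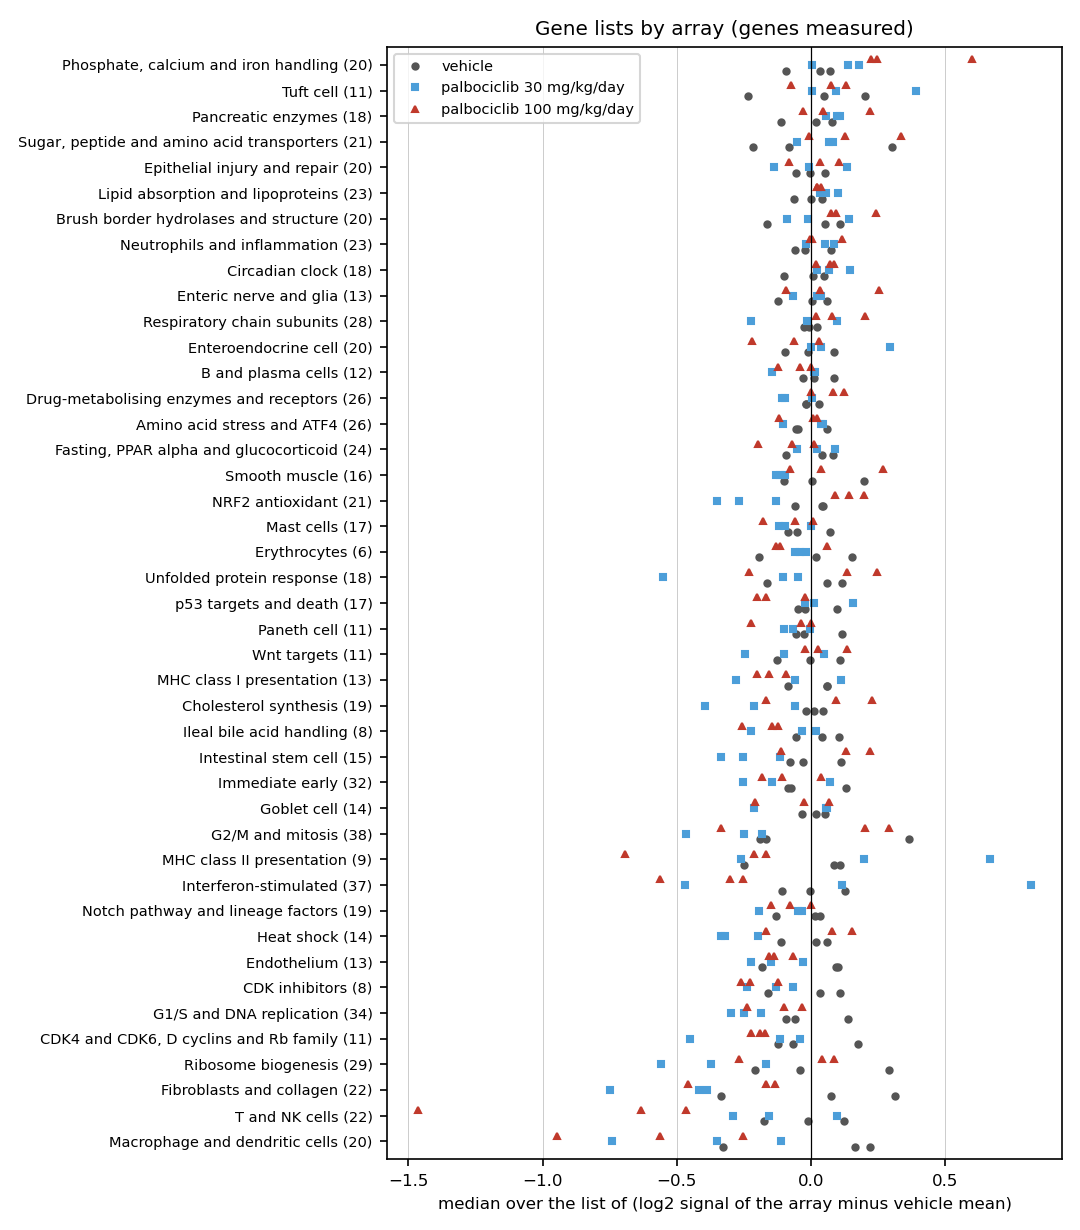
Median, over the genes of each list, of the log2 signal of an array minus the vehicle mean of the gene (horizontal axis), with 1 point per array and the number of measured genes in brackets. Vehicle is grey, 30 mg/kg/day blue and 100 mg/kg/day red. T and NK cell genes lie at -0.63, -0.46 and -1.46 in the 100 mg/kg/day arrays, and over both doses 3 of the 43 lists have a median beyond 0.3 from 0. Of the 43 medians 21 change sign with centred arrays.

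No absorptive list had a median beyond 0.18 from 0, but single genes were less tightly bounded in most of these lists. The 95% interval lay within a 2-fold change for 8 of 20 phosphate, calcium and iron genes. It did so for 13 of 21 nutrient transporters and 16 of 20 brush border genes, against 89.2% of all genes. The phosphate, calcium and iron list had the highest median, 0.18 over 20 genes with 16 positive (0.31 with centred arrays), and 3 members had an unadjusted p under 0.05. Slc20a1, a phosphate transporter, gave 11.45, 11.21 and 10.76 in vehicle, 11.47, 11.89 and 11.80 at the low dose and 12.23, 11.95 and 11.89 at the high dose. Every palbociclib array was above every vehicle array, and the difference was 0.73 ± 0.24. Slc34a2, the sodium phosphate cotransporter NaPi-IIb of the small intestine, gave 9.71, 5.49 and 7.44 in vehicle, 10.45, 9.05 and 9.47 at the low dose and 10.14, 11.90 and 10.60 at the high dose. Its difference of 2.72 ± 0.89 (95% interval 0.83 to 4.62) was the highest of all genes, yet the vehicle arrays spanned over 4 log2 units and overlapped palbociclib. Trpv6, the calcium channel of the brush border, differed by 0.46 ± 0.18, with palbociclib 100 replicate B at 6.76 and the other 8 arrays between 5.30 and 5.92.

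Lipid absorption genes had a median of 0.06 over 23 (0.18 with centred arrays), and for 22 of them the 95% interval lay within a 2-fold change. Dgat2, which makes triglyceride, was between 11.77 and 11.96 in vehicle and between 12.17 and 12.52 with palbociclib, a difference of 0.42 ± 0.14 with no overlap. The sugar, peptide and amino acid transporters had a median of 0.07 over 21, and Slc5a1, the sodium glucose transporter, differed by 0.50 ± 0.34. Brush border hydrolases had 0.05 over 20, and Alpi, the intestinal alkaline phosphatase, was at 12.29 ± 0.40 and 12.63 ± 0.35. Of the 26 genes of drug metabolism 13 had positive and 13 negative differences. Cyp1a1, induced through the aryl hydrocarbon receptor, had 5.20, 12.93 and 9.33 in vehicle, a wider range than the 5.11 to 10.04 of the palbociclib arrays.

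The secretory lists had medians no further than 0.10 from 0, with looser bounds on single genes than over all genes. The 95% interval lay within a 2-fold change for 12 of 14 goblet and 7 of 11 Paneth cell genes. It did so for 14 of 20 enteroendocrine and 6 of 11 tuft cell genes, against 89.2% of all genes. Goblet cell genes had a median of -0.09 over 14 (0.04 with centred arrays). Agr2, a disulfide isomerase needed for mucin folding, was between 13.07 and 13.16 in vehicle and between 12.43 and 12.88 with palbociclib, a difference of -0.45 ± 0.16 with no overlap. Paneth cell genes had -0.06 over 11 (0.07 with centred arrays), enteroendocrine genes 0.02 over 20 and tuft cell genes 0.10 over 11. Chga, the granule protein of enteroendocrine cells, differed by 0.08 ± 0.22.

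Among stress and metabolic lists no pooled median was beyond 0.15 from 0. Respiratory chain subunits were the most tightly bounded, with a median of 0.03 over 28 genes and all 28 intervals within a 2-fold change. Heat shock genes had -0.13 over 14 (-0.003 with centred arrays), cholesterol synthesis -0.07 over 19 (0.06) and the unfolded protein response -0.05 over 18 (0.07). The NRF2 antioxidant list had -0.03 over 21 (0.10) and the p53 and death list -0.05 over 17 (0.07). At 30 and 100 mg/kg/day heat shock had -0.28 and 0.03, cholesterol synthesis -0.24 and 0.07, and the unfolded protein response -0.20 and 0.05. The NRF2 list had -0.23 and 0.13, and the p53 list -0.03 and -0.14. The dose difference of a list was not tested. Ddit3, the stress factor CHOP, was between 8.82 and 8.98 in vehicle and between 9.04 and 9.90 with palbociclib, with no overlap. Its difference was 0.73 ± 0.47, the SE being from the fit on all 18 arrays. In the circadian list Per2, a repressor of the clock, was between 7.24 and 7.38 in vehicle, between 7.56 and 7.71 at the low dose and between 7.77 and 8.17 at the high dose. The 3 groups did not overlap, and the pooled difference was 0.48 ± 0.16. Hexim1, an inhibitor of the transcription kinase P-TEFb, was between 9.44 and 9.65 in vehicle and between 8.50 and 9.33 with palbociclib.

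The 2 doses could be compared without the vehicle arrays. No gene passed in either direction (0% higher, 0% lower, lowest adjusted p = 0.557, 619 genes at an unadjusted p under 0.05 in limma). Cd8a, the co-receptor of cytotoxic T cells, had the smallest p, with 7.14, 7.15 and 7.72 at 30 mg/kg/day and 6.03, 6.21 and 5.42 at 100 mg/kg/day, against 6.80, 6.96 and 7.24 in vehicle. The dose difference was -1.45 ± 0.27, and the pooled difference from vehicle, over values on both sides of it, was -0.39 ± 0.23. A second probe set of Cd8a had a dose difference of -1.71 and the third, the dimmest, -0.40. Timp1, an inhibitor of matrix proteases, went the other way, with 5.82, 6.15 and 5.46 at the low dose and 7.07, 7.10 and 7.64 at the high dose. Rflnb, a regulator of actin filaments, differed by 1.70 ± 0.37 and Cd37, a leukocyte tetraspanin, by -0.65 ± 0.13.

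Some genes ranged widely among arrays of 1 group. Fam111a, a protease-related antiviral and replication factor, had the widest range of all genes and was picked out after its values were seen. It gave 6.59, 13.10 and 13.21 in vehicle, 13.12, 13.32 and 13.41 at 30 mg/kg/day and 6.55, 4.84 and 7.97 at 100 mg/kg/day. The doses did not overlap, with a difference of -6.83 ± 1.80 (limma adjusted p = 0.997) that was called when the compared groups were fitted alone (adjusted p = 0.0235). Vehicle replicate A lay with the high-dose arrays and the other vehicle arrays with the low-dose arrays. Ubd, an interferon-induced ubiquitin-like protein, gave 6.22, 12.52 and 12.30 in vehicle, with 5.04 to 12.14 over the palbociclib arrays. The source of this spread was not tested.

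**Figure D4:**
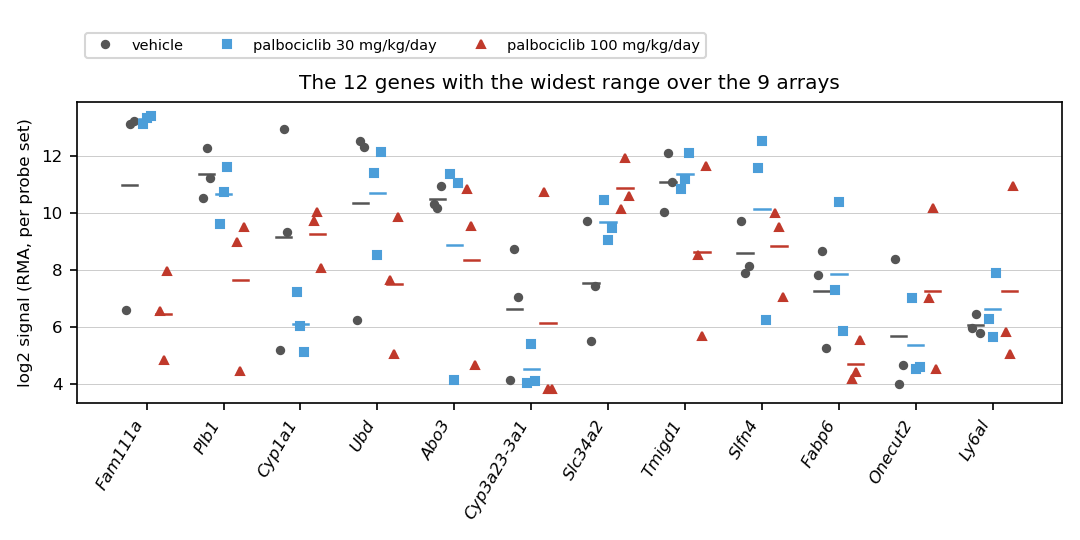
Log2 signal of each array for the genes with the widest range over the 9 arrays, with vehicle in grey, 30 mg/kg/day in blue and 100 mg/kg/day in red. Fam111a is at 6.59 in 1 vehicle array and above 13 in the other vehicle arrays.

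Palbociclib was then set against ribociclib and abemaciclib. These compounds were given at other doses and in another vehicle, so compound, dose and vehicle cannot be told apart here. Palbociclib and ribociclib share a cyclopentyl substituent, which abemaciclib lacks.

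Against ribociclib at 300 mg/kg/day 413 genes differed, 231 higher with palbociclib (1.62%) and 182 lower (1.28%). Leaving out 1 array at a time gave 110 genes (without ribociclib replicate C) to 942 (without ribociclib replicate A). The count was also over 1.5 times lower without palbociclib 100 replicate B (178), palbociclib 30 replicate B (221), palbociclib 30 replicate C (231) or palbociclib 100 replicate C (243). Respiratory chain genes were higher with palbociclib for 9 of 28, and immediate early genes, the first to respond to growth signals and stress, were lower for 14 of 32. Ppargc1a, the coactivator that drives mitochondrial biogenesis, gave 5.97, 6.77 and 6.08 with ribociclib and between 8.59 and 9.40 with palbociclib. It was 2.76 ± 0.25 higher with palbociclib (limma adjusted p = 6.98e-05), while vehicle stood at 8.60 to 9.03. Sirt3, a mitochondrial deacetylase, was 1.48 ± 0.14 higher (adjusted p = 8.78e-05). Maff, a small transcription factor induced by stress, gave 9.02, 9.63 and 9.10 with ribociclib and 5.71 to 7.13 with palbociclib. Cdkn1a was lower with palbociclib by 0.84 ± 0.20 (adjusted p = 0.0345). In the T and NK list only Cd8a differed, and no macrophage gene did. Nkg7 was 0.43 ± 0.20 higher with palbociclib, which did not pass (interval 0.00 to 0.85).

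Against abemaciclib at 120 mg/kg/day 3719 genes differed, 1523 higher with palbociclib (10.7%) and 2196 lower (15.4%). With centred arrays the split was 5190 higher and 1689 lower, and with the RNA quality value as a covariate the total was 1754. Without abemaciclib replicate A it was 2207. All 38 G2/M genes and 28 of the 34 G1/S genes were lower with palbociclib, where the list medians against vehicle were -0.10 and -0.17 for palbociclib and 2.35 and 1.42 for abemaciclib. Mcm6 gave 8.92, 8.24 and 8.10 with abemaciclib, a difference of -3.05 ± 0.31 (adjusted p = 1.07e-05). Top2a was lower by 3.54 ± 0.55 and Cdk4 by 2.18 ± 0.40. Ribosome biogenesis genes were lower for 28 of 29 and stem cell genes for 12 of 15.

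The absorptive and immune genes lay on the other side. All 9 MHC class II genes, 16 of 22 T and NK genes, 13 of 23 lipid absorption genes and 13 of 21 nutrient transporters were higher with palbociclib than with abemaciclib. Cyp27a1, a mitochondrial sterol hydroxylase, had the smallest p. It gave 7.38, 7.96 and 7.25 with abemaciclib, between 10.43 and 10.78 with palbociclib and between 10.31 and 11.21 in vehicle. Gzma was 4.58 ± 0.60 higher with palbociclib (adjusted p = 6.18e-05) and Cd74 2.93 ± 0.40 higher. Slc34a2 was high with both compounds, with 10.70, 11.16 and 10.65 for abemaciclib, and the 95% interval of the difference was -2.46 to 1.32.

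**Figure D5:**
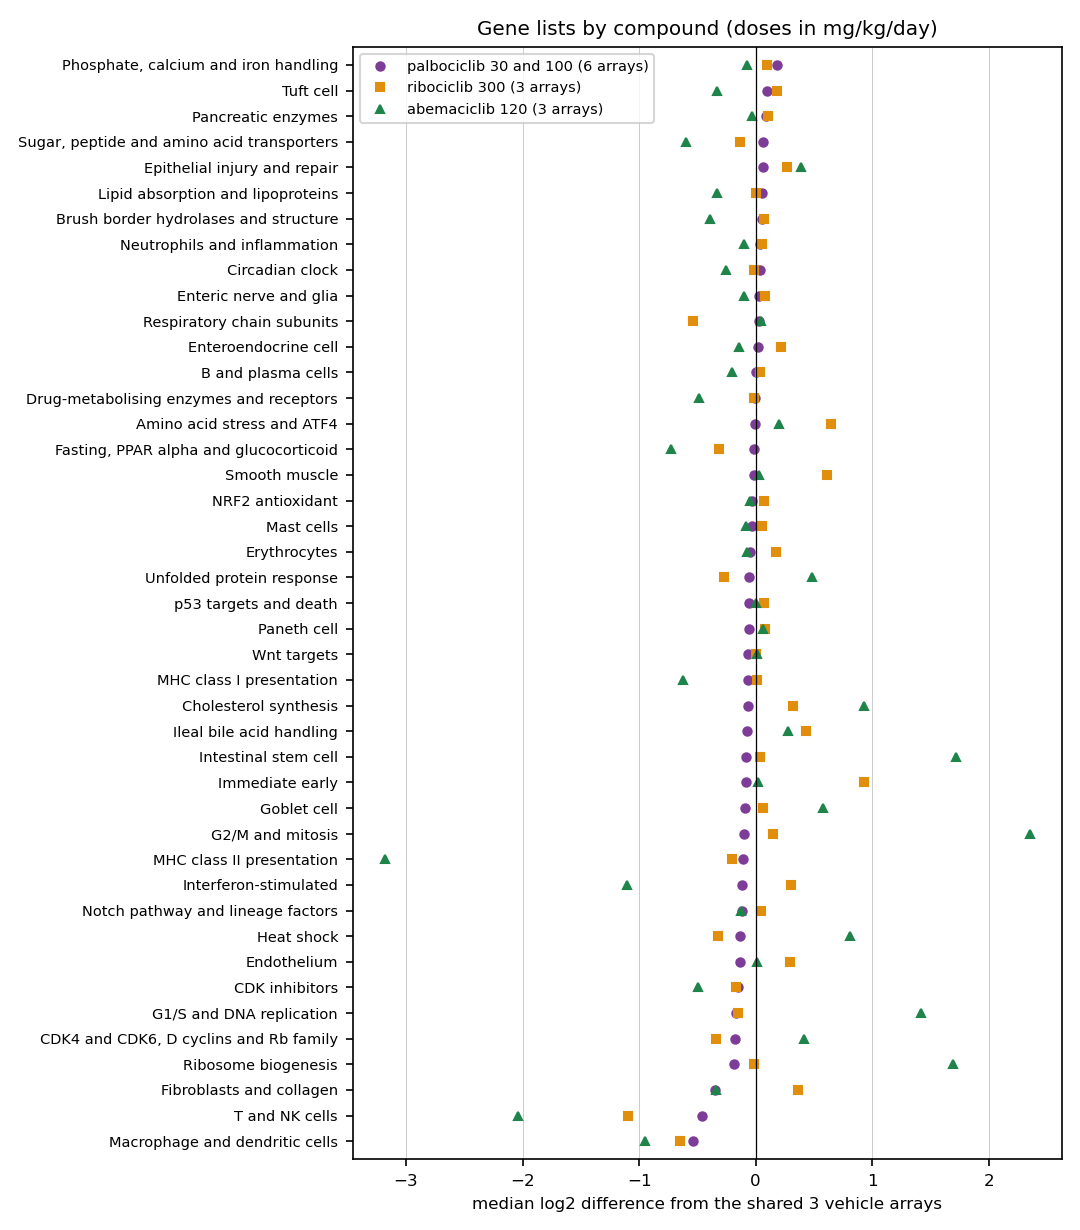
Median log2 difference from the same 3 vehicle arrays (horizontal axis) for each list, for palbociclib at both doses (purple), ribociclib at 300 mg/kg/day (orange) and abemaciclib at 120 mg/kg/day (green). The palbociclib medians stay between -0.53 and 0.18, while abemaciclib runs from -3.18 for MHC class II to 2.35 for G2/M and mitosis.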

How the data were processed

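Mucosal RNA was hybridised to Affymetrix rat arrays with 31099 probe sets. The authors deposited log2 signals, made, per the submitters' processing notes, with tools that include Affymetrix Expression Console, RMA and Transcriptome Analysis Console. Versions are not given in the sources used here. Array number limits the precision. The 57 control probe sets were left out, and 20826 probe sets had 1 gene symbol, 436 several and 9780 none. The brightest probe set stood for each of 14217 genes (4525 had more than 1). No pair of arrays was identical.

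Differences were fitted with limma 3.58.1 (R 4.3.3) on all 18 arrays with 6 group means, an intensity trend and Benjamini-Hochberg adjustment at 0.05, the palbociclib doses being averaged. The procedure was tested on simulated data. Tables and figures used Python 3.11.15, pandas 2.3.3, numpy 2.4.6 and matplotlib 3.10.9. Named genes were up to 12 in each direction by p among those with arrays that did not overlap, up to 4 of smallest p in each list, a preset list, 4 in each direction between doses and 6 against each other compound. Members and lists were chosen with earlier results of these data known. Alternatives covered normalization, centring, filtering, probe sets, the variance model, a 1.5-fold minimum, the samples fitted, a replicate block, RNA quality, array weights and leaving out each array. Abemaciclib at 36 mg/kg/day entered the fit but was not compared. Some genes are not reported here.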

Additional observations from a re-analysis of the deposited data

Results flagged for a closer look

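In 12 of the 235 named genes 1 of the 6 palbociclib arrays stood far from the other 5, measured by its gap to the nearest array over the whole range. Chance alone flags about 1 in 20 groups. At 30 mg/kg/day, replicate C was highest for Cdkn2d (8.45, against 8.23 to 8.38 in vehicle) and Tyrobp (8.57), and lowest for Insig1 (10.9), a brake on sterol synthesis. Replicate A was lowest for Psmb10 (10.3), an immunoproteasome subunit. At 100 mg/kg/day, replicate A was highest for Dgat2 (12.5). Replicate B was highest for Nqo1 (7.73), a quinone reductase, and Smoc2 (6.52), a crypt stem cell marker, and lowest for Naaladl1 (11.3, against 13.00 to 13.16 in vehicle), a brush border peptidase. Replicate C was highest for Notch2 (5.52) and Tnfrsf19 (4.38), and lowest for Cyp3a9 (13.7) and RT1-Bb (10.0), an MHC class II chain that ranged from 6.44 to 12.05 in vehicle.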

How the results depend on the processing

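With limma array weights the counts of called genes were 858 for pooled palbociclib, 398 for 100 mg/kg/day, 1247 for 30 mg/kg/day, 363 between doses and 870 against ribociclib. The cause was not tested. Leaving out 1 array at a time gave 0 to 2 for pooled palbociclib, 0 to 1 for 100 mg/kg/day (Adora2b without vehicle replicate A, Ccdc80 without palbociclib 100 replicate A), 110 to 942 against ribociclib and 2207 to 3890 against abemaciclib. Between doses 1 gene, Fam111a, was called with the compared groups fitted alone (limma adjusted p = 0.0235). With every probe set as its own feature, 1 probe set was called lower at 100 than at 30 mg/kg/day (limma adjusted p = 0.0174). Testing every probe set, named or not, an alternative chosen after seeing the data, also called 1 as lower at 100 than at 30 mg/kg/day (limma adjusted p = 0.0287). The gene of these probe set calls is not given here. Against ribociclib, fitting the compared groups alone left 136. Against abemaciclib, centring gave 6879 and the RNA quality covariate 1754. With the replicate block the counts were 0, 493 and 3903 for vehicle, ribociclib and abemaciclib. Arrays with the same letter correlated at -0.08 to 0.36 in their deviations, so letters were not taken as pairs. None of the 12 differences picked for the smallest p against ribociclib or abemaciclib changed sign, an outcome that this choice made likely in advance. Among uncalled values, 17 of 235 genes against vehicle changed sign with centring, 11 with array weights (Fabp6 from -0.97 to 0.06) and 27 on leaving out at least 1 array. Of 43 list medians 21, 11 and 19 did, most often without vehicle replicate B (13 genes, 11 lists). With 3 vehicle arrays, the median 95% half-width of a pooled difference was 0.37.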

Other observations

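Single arrays stood apart for several further intestinal genes, all picked out after their values were seen. Akp3, an intestinal alkaline phosphatase, was at 9.86 in palbociclib 100 replicate B and between 3.99 and 4.96 in the other 8 arrays. The same array held the lowest Plb1, a brush border phospholipase, at 4.45 against 8.95 to 12.28, and the highest Ghrl, the ghrelin gene, at 10.31 against 5.23 to 7.79. Aqp8, a water channel, was at 10.16 there and between 4.86 and 8.71 elsewhere. Fabp6, the ileal bile acid binding protein, ran from 4.16 to 10.36, the highest being palbociclib 30 replicate B.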
